A study of Mus musculus with 60 samples.

Results

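The response of brown adipose tissue to a beta-3 adrenergic agonist was read from 6 whole-tissue RNA libraries, 3 labelled CL and 3 labelled PBS, out of 60 libraries in the series. They were chosen by their titles and not by any measured value. All 6 came from brown fat of 8-week-old male mice of the strain B6.Foxp3.DTR that were genotyped DTR-, which lack the receptor that makes Foxp3-expressing cells sensitive to diphtheria toxin (DT). The CL group was treated with DT and CL, and its controls with DT and PBS, the buffer, so every mouse of both groups had received the toxin. CL is taken here to be CL-316243, a selective agonist of the beta-3 adrenergic receptor, since the labels give the 2 letters alone, and they state neither a dose nor a time. A second set of 6 libraries was used for comparison: 3 from DTR+ mice given DT and CL, and 3 from DTR+ mice of the group named D3, whose titles say PBS and whose treatment label says DT. In DTR+ mice the toxin acts on regulatory T cells, so these controls belong to another experiment and another immune state, and the agonist cannot be told apart from the experiment there. Further libraries shown for reference were 3 from DTR- mice of the D3 PBS group and 3 given PBS and kept at 4 degrees, without DT, whose titles say WT and whose genotype label says DTR-. All of these further mice were also 8-week-old males of the strain B6.Foxp3.DTR. Nothing in the labels says that replicates are separate animals, so a p-value here speaks of variation among libraries, some of which may be technical.

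Brown adipocytes burn fuel to make heat, and they do so when noradrenaline from sympathetic nerves binds beta-adrenergic receptors at their surface. The receptor acts through a stimulatory G protein and adenylyl cyclase to raise cyclic AMP (cAMP), which activates protein kinase A. That kinase starts lipolysis at the lipid droplet and, through the transcription factor CREB, switches on early genes and the coactivator PGC-1alpha (Ppargc1a), and the released fatty acids both fuel and open the uncoupling protein UCP1. The same signal sets off brakes on itself, among them phosphodiesterases and loss of the receptor.

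The 3 CL libraries held 3007241, 5074191 and 9620920 counts, and the 3 PBS libraries 5384600, 4719310 and 8847409. All values below are CPM, counts set relative to the library's total after scaling by TMM factors, unless they are named as log2 fold changes, which are CL over PBS from edgeR. Brown fat identity was plain in each library: Cidea, a lipid droplet protein of brown adipocytes, stood at 5416, 5156 and 5627 CPM with CL and 5519, 5686 and 5505 with PBS. One control stood apart. The 24 T and NK cell markers summed to 12.2, 18.0 and 15.7 CPM in CL libraries, against 39.6, 23.9 and 326 CPM in PBS libraries, where PBS replicate 3 was the high one. The 34 genes induced by interferon gamma summed to 2255, 1938 and 2628 CPM with CL and to 3384, 2757 and 17275 CPM with PBS. Skeletal muscle markers, 15 in all, were uneven in both groups, at 99.1, 50.6 and 1062 CPM with CL and 91.1, 670 and 93.6 CPM with PBS. They summed to 578, 2739 and 1658 CPM in DTR- D3 PBS libraries and to 1299, 3249 and 2323 CPM in DTR+ D3 PBS libraries. DTR+ CL libraries had 545, 615 and 62.3 CPM. Contrasts with the D3 PBS controls thus also differ in muscle RNA. Foxp3, the transcription factor of regulatory T cells, had 0 counts in all 3 CL libraries, where 3 counts over the group would be 0.169 CPM, and 7 counts in the PBS libraries, every one of them in replicate 3. Because of that replicate, each count below that leads a paragraph is also given without it. In whole tissue, fewer cells of a type and less RNA per cell cannot be told apart.

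**Figure D1:**
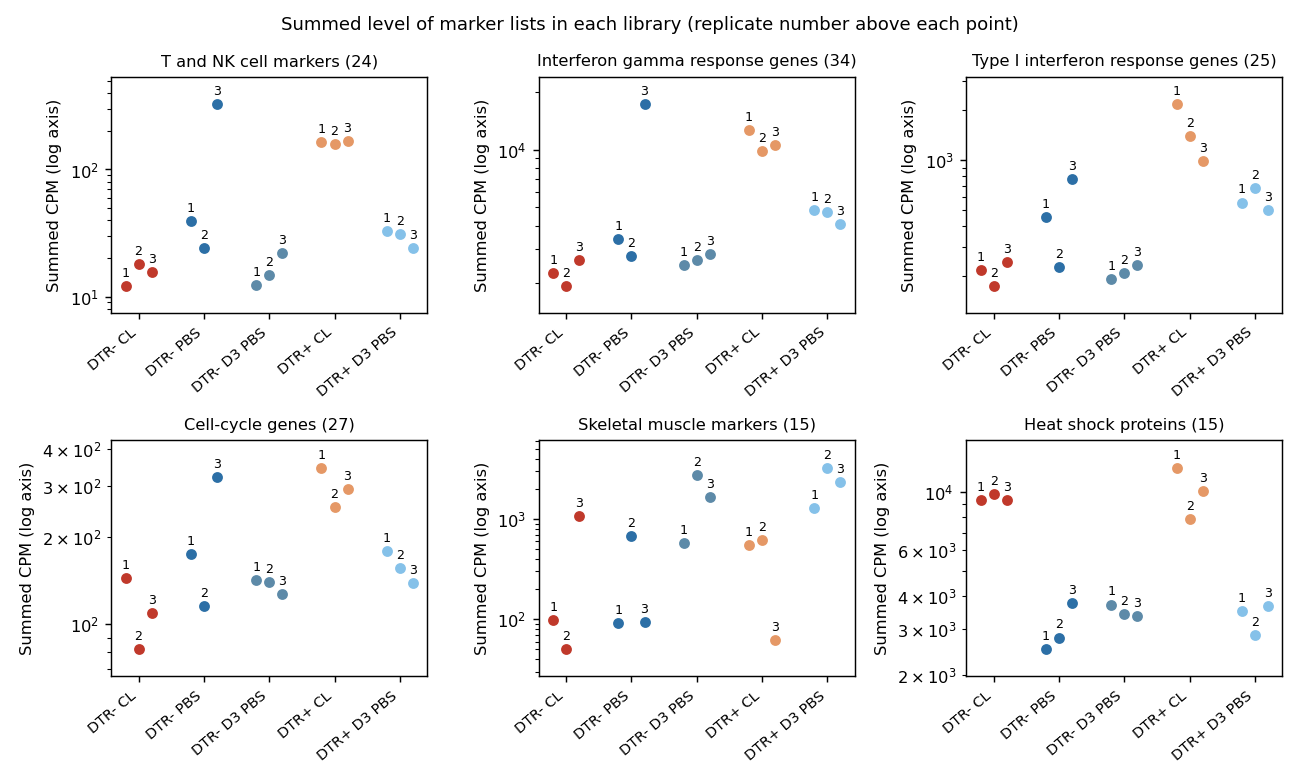
Summed CPM of 6 gene lists (y, log axis; number of genes in brackets) in each library of 5 brown fat groups (x), with the replicate number above each point. PBS replicate 3 of the DTR- mice is the highest of its group for T and NK markers (326 CPM) and for interferon gamma response genes (17275 CPM), while heat shock proteins separate CL from PBS libraries in both genotypes.

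With CL, 3390 of the 12048 genes tested changed (28.1%), 1967 higher (16.3%) and 1423 lower (11.8%), by edgeR's quasi-likelihood test at a Benjamini-Hochberg adjusted p under 0.05. Changes were often large: 450 of the genes that rose did so by more than 4-fold, and 304 fell by more than 4-fold. The CPM ranges of CL and PBS did not overlap, CL above, for 23.5% of genes tested, and CL below for 21.4%. The median log2 fold change of all genes was -0.03. Counts of list members below are to be read beside the shares of all genes, 16.3% higher and 11.8% lower against the PBS libraries. When PBS replicate 3 was left out, 2460 of 12432 genes changed (19.8%), 1596 higher (12.8%) and 864 lower (6.95%). Against the DTR- D3 PBS libraries in place of the PBS libraries, 4254 of 11569 genes changed (36.8%), 2363 higher (20.4%) and 1891 lower (16.3%). In the DTR+ comparison, 4524 of 11981 genes changed (37.8%), 2423 higher (20.2%) and 2101 lower (17.5%). Of the genes that rose in DTR- mice, 1086 also rose in DTR+ mice, which is 55.2% of the DTR- list and 44.8% of the DTR+ list. Of those that fell, 631 fell in both, 44.3% of the DTR- list and 30.0% of the DTR+ list. Some were called the other way in DTR+ mice: 47 of the 1937 that rose and were tested there, and 145 of the 1404 that fell. These comparisons share no library in their contrasts, although the DTR+ CL libraries help set the spread in the DTR- fit.

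The 4 genes used here as markers of the agonist response separated the groups without exception. They were chosen with earlier results of these data known, so their separation describes the response and is no separate evidence for it. Ppargc1a, the coactivator PGC-1alpha that drives mitochondrial and thermogenic programmes, stood at 2486, 1523 and 2446 CPM with CL and at 61.3, 66.0 and 87.5 CPM with PBS. Every CL library was therefore far above every PBS library, and the log2 fold change was 4.89 ± 0.32 (SE, n = 3 each, edgeR adjusted p = 6.05e-07). Nr4a3, an orphan nuclear receptor induced early by cAMP, had 259, 172 and 226 CPM with CL and 4.30, 3.76 and 9.18 CPM with PBS. Its log2 fold change was 5.18 ± 0.32 (edgeR adjusted p = 2.02e-07). Gpat3, the glycerol-3-phosphate acyltransferase that starts triglyceride assembly, had 441, 335 and 490 CPM with CL and 23.0, 20.4 and 19.3 CPM with PBS. Its groups were far apart, with a log2 fold change of 4.32 ± 0.19 (edgeR adjusted p = 8.84e-09). Acot5, a peroxisomal acyl-CoA thioesterase that frees fatty acids from coenzyme A, was nearly off without the agonist: it had 132, 126 and 217 CPM with CL, and 0.179, 0 and 0 CPM with PBS. That is 2834 counts with CL against 1 with PBS, a ratio of 3190 whose 95% interval for counting error alone runs from 573 to 126000. Acot5 lies at chr12:84069325-84076020 in mm10, and 30.2% of the 31-base words of its transcript also occur in other genes, chiefly Acot3, so that some reads could be shared between family members.

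The same 4 genes were read in the libraries that the contrast did not use. In DTR+ mice, Acot5 had 263, 220 and 303 CPM with CL and 0 counts in each of the 3 D3 PBS libraries. It was also at 0 counts in the 3 DTR- D3 PBS libraries, and over those 6 libraries 3 counts would be 0.0804 CPM. At 4 degrees, Acot5 had 9.53, 6.49 and 10.9 CPM, so cold brown fat held this RNA at a level between those of CL and PBS libraries. Ppargc1a had 149, 114 and 208 CPM at 4 degrees, and Gpat3 had 26.5, 21.1 and 25.9 CPM there. Nr4a3, with 0.248, 2.55 and 1.69 CPM at 4 degrees, was lowest in the cold. The cold mice differ from the CL mice in toxin, experiment and unstated times of exposure, and these values were not tested against each other. In DTR+ mice the log2 fold changes of CL over D3 PBS were 3.65 ± 0.28 for Ppargc1a, 2.88 ± 0.26 for Nr4a3 and 4.77 ± 0.19 for Gpat3, each with an edgeR adjusted p of at most 4.83e-06. Nr4a3 was already at 41.0, 18.0 and 29.8 CPM in DTR+ D3 PBS libraries, above the DTR- PBS libraries, while its CL levels of 190, 208 and 253 CPM in DTR+ mice lay close to those in DTR- mice.

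**Figure D2:**
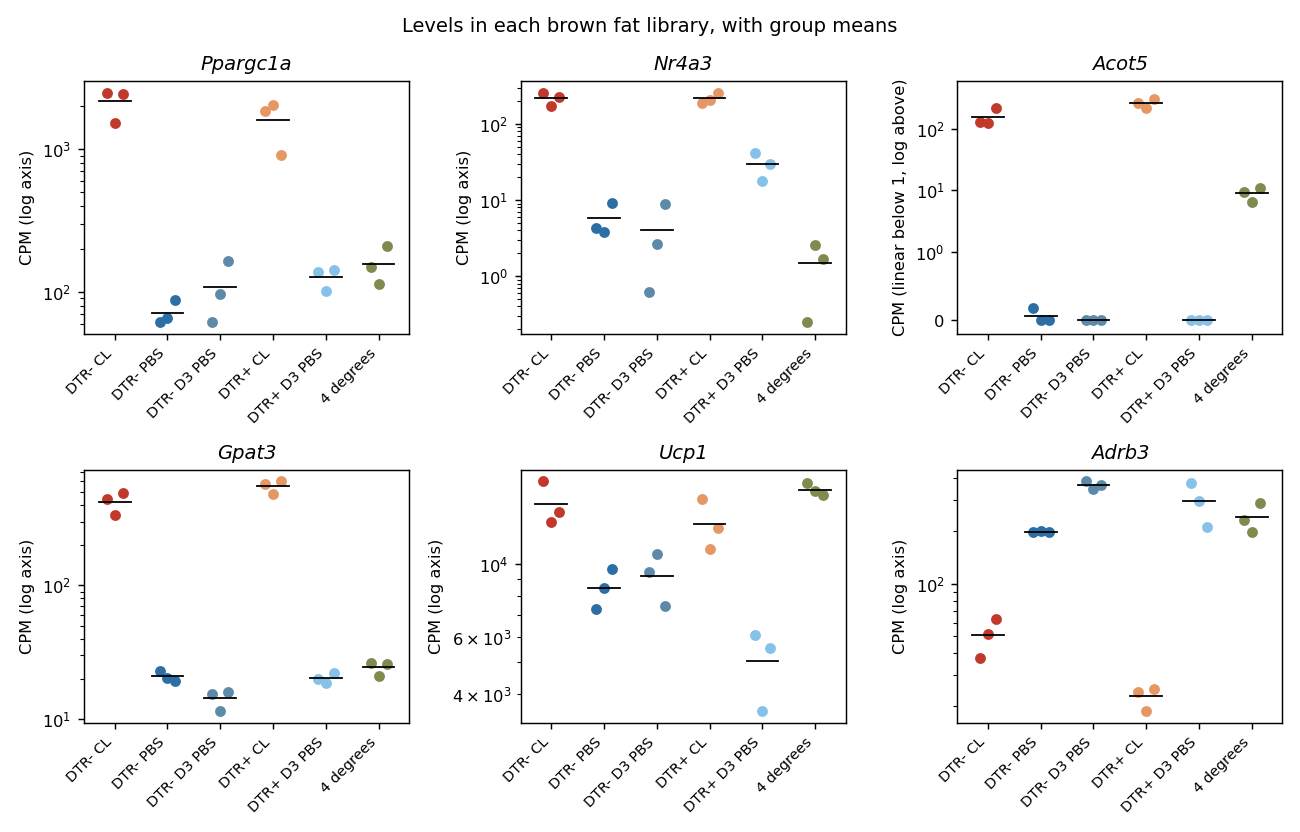
CPM of 6 genes (y, log axis; for Acot5 linear below 1) in each library of 6 brown fat groups (x), with black bars for group means. CL libraries of both genotypes stand above their PBS libraries for Ppargc1a, Nr4a3, Acot5, Gpat3 and Ucp1 and below them for Adrb3, and the cold libraries are in the CL range for Ucp1 and not for the other 5 genes.

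Ucp1, the uncoupling protein of brown fat, rose by a small factor from an already high level. It stood at 18015, 13491 and 14467 CPM with CL and 7271, 8469 and 9710 CPM with PBS. All CL libraries were above all PBS libraries, with a log2 fold change of 0.84 ± 0.17 (edgeR adjusted p = 0.00281). In cold brown fat Ucp1 had 17749, 16849 and 16338 CPM. Adrb3, the beta-3 receptor itself, fell: it had 37.7, 51.9 and 62.7 CPM with CL and 197, 200 and 198 CPM with PBS. The log2 fold change was -1.97 ± 0.20 (edgeR adjusted p = 1.35e-05), and in DTR+ mice it was -3.70 ± 0.24 (edgeR adjusted p = 4.32e-07). In the cold Adrb3 stood at 233, 197 and 291 CPM, at or above the level of the PBS libraries. The DTR- D3 PBS libraries had 386, 346 and 368 CPM, each above every cold library. The reading of the cold libraries thus depends on the control, and it was not tested.

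Among receptors and the cAMP machinery, 8 of 24 tested genes rose and 5 fell (median log2 fold change 0.13; 7 and 5 without PBS replicate 3), and the members that fell include receptors with opposite effects on cAMP. Hcar1, the lactate receptor that restrains lipolysis, had 3.95, 2.05 and 11.9 CPM with CL and 95.4, 63.6 and 61.2 CPM with PBS. Adora1, the adenosine receptor that lowers cAMP in fat cells, had 23.3, 32.4 and 21.8 CPM with CL and 112, 80.6 and 60.0 CPM with PBS. These inhibitory receptors fell together with Adrb3, by 3.55 ± 0.47 and 1.70 ± 0.30 on the log2 scale (edgeR adjusted p = 0.000135 and 0.00105). Adcy9, an adenylyl cyclase, also fell, by 1.85 ± 0.49 (edgeR adjusted p = 0.0126). Adcy3, the cyclase isoform prominent in brown fat, rose by 1.83 ± 0.22 (edgeR adjusted p = 4.91e-05), with 875, 516 and 678 CPM with CL and 145, 209 and 220 CPM with PBS. Prkar1a, the regulatory subunit that holds protein kinase A inactive, rose by 1.32 ± 0.16 (edgeR adjusted p = 5.56e-05), and its levels of 1015, 821 and 967 CPM with CL compare with 340, 374 and 396 CPM with PBS. Gnas, which encodes the stimulatory G protein subunit, rose by 1.74 ± 0.30 in DTR- mice (edgeR adjusted p = 0.000891), against 0.38 ± 0.24 in DTR+ mice, where it was not called (edgeR adjusted p = 0.228). Adora2a, an adenosine receptor that raises cAMP, had 19.0, 17.6 and 11.3 CPM with CL and 4.13, 3.99 and 2.20 CPM with PBS. Its rise was called against the PBS libraries (edgeR adjusted p = 0.0092) and not against the DTR- D3 PBS libraries (edgeR adjusted p = 0.101).

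Of 23 tested genes known as cAMP targets or feedback regulators, 13 were called higher, 1 lower and 9 in neither direction (median log2 fold change 1.56). Without PBS replicate 3, 15 rose and 1 fell, and in DTR+ mice 12 rose and 5 fell. The list holds Ppargc1a and Nr4a3, described above. The phosphodiesterase Pde4d, which degrades cAMP, had 536, 772 and 506 CPM with CL and 69.4, 58.7 and 46.1 CPM with PBS. Its log2 fold change was 3.38 ± 0.22 (edgeR adjusted p = 3.05e-07), and its relative Pde4b rose by 1.91 ± 0.31 (edgeR adjusted p = 0.000549). Irs2, the insulin receptor substrate and a classic CREB target, had 245, 239 and 230 CPM with CL and 10.05, 11.96 and 22.8 CPM with PBS. Sik1, a kinase that shuts CREB's coactivators out of the nucleus, had 118, 182 and 176 CPM with CL and 5.20, 9.08 and 9.54 CPM with PBS. The groups were far apart for both, with log2 fold changes of 3.96 ± 0.30 and 4.30 ± 0.59 (edgeR adjusted p = 1.02e-06 and 0.00071). Dusp4, a phosphatase of MAP kinases, rose by 3.26 ± 0.28 (edgeR adjusted p = 2.7e-06), Gadd45g by 2.43 ± 0.32 (edgeR adjusted p = 0.000169) and Fosl2, an AP-1 subunit, by 2.40 ± 0.31 (edgeR adjusted p = 9.98e-05). The one member that fell was Rgs2, which speeds the switching-off of G proteins: it had 0.359, 1.64 and 8.89 CPM with CL and 72.3, 54.0 and 150 CPM with PBS. It fell by 4.47 ± 0.74 (edgeR adjusted p = 0.0023), and by 3.47 ± 0.29 in DTR+ mice (edgeR adjusted p = 2.68e-06). Nr4a1, a relative of Nr4a3, had 565, 553 and 601 CPM with CL and 18.7, 23.7 and 286 CPM with PBS, where replicate 3 is the high one. Its groups did not overlap, yet it was not called with all libraries (2.36 ± 1.04, edgeR adjusted p = 0.144) and was called without PBS replicate 3 (4.76 ± 0.25, edgeR adjusted p = 1.29e-08). Crem, a cAMP-inducible repressor of CREB targets, had 49.5, 51.2 and 52.4 CPM with CL and 24.2, 35.9 and 44.2 CPM with PBS. Its groups did not overlap, yet it was not called against the PBS libraries (edgeR adjusted p = 0.113). It was called higher against the DTR- D3 PBS libraries (1.31, edgeR adjusted p = 0.000504) and in DTR+ mice (1.88 ± 0.20, edgeR adjusted p = 1.56e-05).

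Immediate-early genes gave 11 higher and 0 lower of 18 tested (median 1.75; 11 and 0 without PBS replicate 3). Junb, an AP-1 subunit, had 136, 120 and 121 CPM with CL and 22.1, 14.6 and 15.7 CPM with PBS, a log2 fold change of 2.84 ± 0.27 (edgeR adjusted p = 7.03e-06). Atf3, a stress-induced repressor, rose by 4.66 ± 0.47 (edgeR adjusted p = 5.48e-05) and Jun by 2.96 ± 0.37 (edgeR adjusted p = 0.000127). Fosl1 had 36 counts with CL and 0 with PBS, which is at least 13.5-fold higher when the PBS group is set at 3 counts. The values differed between the genotypes, a difference that was not tested. In DTR+ mice Junb had a log2 fold change of 0.05 ± 0.23 (edgeR adjusted p = 0.888) and Sik1 one of -0.22 ± 0.52 (edgeR adjusted p = 0.769), and the list gave 6 higher and 1 lower of its tested members. The summed level of the list was 911, 723 and 888 CPM in DTR- CL and 1424, 1482 and 1043 CPM in DTR+ CL libraries, and 159, 125 and 246 CPM in DTR- PBS and 889, 1036 and 842 CPM in DTR+ D3 PBS libraries. The D3 libraries of DTR+ mice thus held more of these RNAs without any agonist, and DTR- D3 PBS libraries ranged from 195 to 672 CPM. Against the DTR- D3 PBS libraries, 5 of 16 tested members rose and 0 fell. Egr1, an early growth response factor named after its values were seen, had 125, 85.3 and 115 CPM with CL and 3.77, 4.87 and 30.5 CPM with PBS. It was called against the PBS libraries (2.98 ± 0.73, edgeR adjusted p = 0.0198; 4.65 without PBS replicate 3), a call lost with no filter on low counts, and not against the DTR- D3 PBS libraries (0.51, edgeR adjusted p = 0.756).

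Promoter sequences are shown for 6 genes that carry this response, so that the cAMP response element can be seen in place: the 3 agonist markers whose window holds a copy, Prkar1a and Dio2, whose windows hold the full element, and Hsph1 for the heat shock genes below. Each runs 5′ to 3′ on the gene's own strand from 250 bases before to 50 bases after a transcription start of RefSeq (GRCm38.p6). Capitals mark TGACG, the short element bound by CREB, on either strand (CGTCA is its other strand), or the full element TGACGTCA, which holds a short one on each strand. In Hsph1 they mark the heat shock element instead. The windows are chr5:51567676-51567975 (minus strand) for Ppargc1a, chr4:48045055-48045354 (plus) for Nr4a3, chr5:100845979-100846278 (plus) for Gpat3, chr11:109650699-109650998 (plus) for 1 of the 6 starts of Prkar1a, chr12:90738989-90739288 (minus) for Dio2 and chr5:149636266-149636565 (minus) for Hsph1.
Ppargc1a: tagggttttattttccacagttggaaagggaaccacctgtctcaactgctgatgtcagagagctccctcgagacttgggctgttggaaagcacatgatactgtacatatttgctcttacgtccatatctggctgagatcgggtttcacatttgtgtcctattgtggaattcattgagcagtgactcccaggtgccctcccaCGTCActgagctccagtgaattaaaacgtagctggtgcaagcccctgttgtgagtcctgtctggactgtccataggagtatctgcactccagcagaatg
Nr4a3: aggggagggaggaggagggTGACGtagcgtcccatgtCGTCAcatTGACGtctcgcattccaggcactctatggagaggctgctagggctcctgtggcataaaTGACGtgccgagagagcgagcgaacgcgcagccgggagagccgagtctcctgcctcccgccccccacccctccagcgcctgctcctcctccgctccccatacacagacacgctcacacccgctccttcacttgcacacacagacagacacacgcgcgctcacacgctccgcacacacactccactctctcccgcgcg
Gpat3: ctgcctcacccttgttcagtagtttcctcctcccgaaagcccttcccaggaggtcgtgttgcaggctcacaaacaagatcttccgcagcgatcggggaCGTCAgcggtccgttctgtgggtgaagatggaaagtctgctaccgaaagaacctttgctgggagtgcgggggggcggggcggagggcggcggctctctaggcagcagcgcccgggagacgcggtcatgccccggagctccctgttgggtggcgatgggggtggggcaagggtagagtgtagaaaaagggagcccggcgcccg
Prkar1a: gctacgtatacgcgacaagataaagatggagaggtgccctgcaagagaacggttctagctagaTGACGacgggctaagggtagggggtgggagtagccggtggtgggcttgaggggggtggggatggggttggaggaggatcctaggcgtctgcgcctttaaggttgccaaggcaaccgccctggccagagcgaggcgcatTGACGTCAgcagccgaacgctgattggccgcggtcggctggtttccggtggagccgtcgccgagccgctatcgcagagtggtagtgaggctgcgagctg
Dio2: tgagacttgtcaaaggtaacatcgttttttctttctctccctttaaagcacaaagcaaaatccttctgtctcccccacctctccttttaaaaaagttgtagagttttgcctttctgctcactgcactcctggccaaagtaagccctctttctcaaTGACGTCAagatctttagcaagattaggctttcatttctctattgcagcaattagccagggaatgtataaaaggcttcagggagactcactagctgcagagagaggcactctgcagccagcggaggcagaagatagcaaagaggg
Hsph1: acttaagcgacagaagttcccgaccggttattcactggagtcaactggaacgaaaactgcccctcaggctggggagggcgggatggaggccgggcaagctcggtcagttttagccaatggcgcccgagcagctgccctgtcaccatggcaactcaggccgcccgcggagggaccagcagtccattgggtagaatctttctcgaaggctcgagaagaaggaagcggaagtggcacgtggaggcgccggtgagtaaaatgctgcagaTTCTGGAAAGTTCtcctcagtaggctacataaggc
Ppargc1a has 1 short element 49 bases before its start, Gpat3 has 1 at 152 bases before, and Nr4a3 has 4. Prkar1a has the full element 49 bases before this start and a further short element upstream, and Dio2 has the full element 95 bases before its start. Neither RefSeq start of Acot5 has a short element in its window. Of the 24 cAMP feedback and CREB target genes, 19 had a window, and 12 of them (63.2%) held a short element. That list was drawn from known cAMP targets, so its share describes the list, not the response. A short element was found in 45.8% of 1560 genes that rose, 33.5% of 1114 that fell, 35.8% of 9323 genes tested and 23.0% of all 27025 genes with a window. For the full element the shares were 5.32% of genes that rose, 3.95% of those that fell, 3.56% of genes tested and 2.03% of all genes. Short elements overlap full ones, genes with several starts have more windows to search, and the shares were not tested. A match describes letters and does not show binding.

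Of 24 thermogenic genes tested 7 rose and 1 fell (median 0.22; 7 and 0 without PBS replicate 3). Against the DTR- D3 PBS libraries 6 rose and 7 fell, and in DTR+ mice 9 rose and 8 fell. Pdk4, the kinase that turns pyruvate away from oxidation, had 5876, 4605 and 5647 CPM with CL and 724, 677 and 806 CPM with PBS. It rose by 2.86 ± 0.17 (edgeR adjusted p = 1.32e-07). Gk, glycerol kinase, which lets brown fat reuse glycerol from lipolysis, had 2347, 1745 and 1922 CPM with CL and 371, 657 and 416 CPM with PBS. It rose by 2.05 ± 0.21 (edgeR adjusted p = 1.61e-05), and by 3.55 ± 0.25 in DTR+ mice. Prdm16, a determinant of brown identity, rose by 1.94 ± 0.38 (edgeR adjusted p = 0.00212) and Kcnk3, a potassium channel of brown fat, by 0.66 ± 0.16 (edgeR adjusted p = 0.0081). Dio2, the deiodinase that makes active thyroid hormone, had 358, 368 and 357 CPM with CL and 42.9, 87.5 and 171 CPM with PBS. The call on Dio2 (1.83 ± 0.47, edgeR adjusted p = 0.0195) was lost without CL replicate 2, without PBS replicate 2 and with no filter on low counts, and its groups did not overlap. Elovl3, a fatty acid elongase, had 1068, 628 and 1037 CPM with CL and 182, 469 and 624 CPM with PBS and was not called (edgeR adjusted p = 0.0618; 0.0101 without PBS replicate 3). Cox8b, a respiratory subunit of brown fat, had 1921, 2002 and 2586 CPM with CL and 2382, 2321 and 2874 CPM with PBS (edgeR adjusted p = 0.408).

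Respiratory chain genes stayed mostly uncalled. Of 77 nuclear subunits tested, 1 rose and 4 fell (median -0.13), shares below those of all genes, and 0 rose and 2 fell without PBS replicate 3. Sdhc and Sdhd, membrane subunits of succinate dehydrogenase, fell by 1.11 ± 0.22 and 0.70 ± 0.17 (edgeR adjusted p = 0.00209 and 0.0069). Sdhc had 212, 150 and 252 CPM with CL and 415, 428 and 465 CPM with PBS. Both were also called lower against the DTR- D3 PBS libraries (edgeR adjusted p = 0.000887 and 0.00676). Neither was called in DTR+ mice (edgeR adjusted p = 0.0838 and 0.257). Of 13 genes encoded in mitochondrial DNA, 0 rose and 4 fell (median -0.47), and 1 fell without PBS replicate 3. These genes made up 9.91, 11.1 and 8.84% of all counts in CL libraries and 12.5, 15.3 and 14.3% in PBS libraries, so the groups did not overlap. Against the DTR- D3 PBS libraries, at 12.8, 13.7 and 12.9%, 2 of the 13 rose and 5 fell. In DTR+ mice the groups overlapped, at 10.4, 11.4 and 15.7% with CL and 12.9, 14.1 and 12.1% with D3 PBS. There 3 of the 13 rose and 1 fell (median 0.26).

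Nuclear receptors and PGC-1 coactivators gave 5 higher and 2 lower of 15 (median 0.59; 5 and 1 without PBS replicate 3), and in DTR+ mice 4 rose and 5 fell. Ppara, the fatty acid receptor that drives oxidation genes, had 568, 617 and 569 CPM with CL and 87.2, 57.4 and 44.7 CPM with PBS. Its log2 fold change was 3.21 ± 0.28 in DTR- mice (edgeR adjusted p = 3.83e-06) and 0.66 ± 0.24 in DTR+ mice (edgeR adjusted p = 0.042). Ppargc1b, the second PGC-1 coactivator, rose by 1.16 ± 0.23 (edgeR adjusted p = 0.00212) in DTR- mice and fell by 0.89 ± 0.20 in DTR+ mice (edgeR adjusted p = 0.00354); against DTR- D3 PBS libraries it was not called (0.31, edgeR adjusted p = 0.28). Pprc1, a PGC-1 relative, rose by 2.29 ± 0.40 (edgeR adjusted p = 0.000903) and Ncoa1, a nuclear receptor coactivator, by 0.89 ± 0.20 (edgeR adjusted p = 0.00515). Pparg, the master regulator of fat cells, had 518, 439 and 657 CPM with CL and 397, 397 and 450 CPM with PBS (edgeR adjusted p = 0.141). It was called higher against the DTR- D3 PBS libraries (0.56, edgeR adjusted p = 0.03) and in DTR+ mice (0.54 ± 0.17, edgeR adjusted p = 0.0252).

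**Figure D3:**
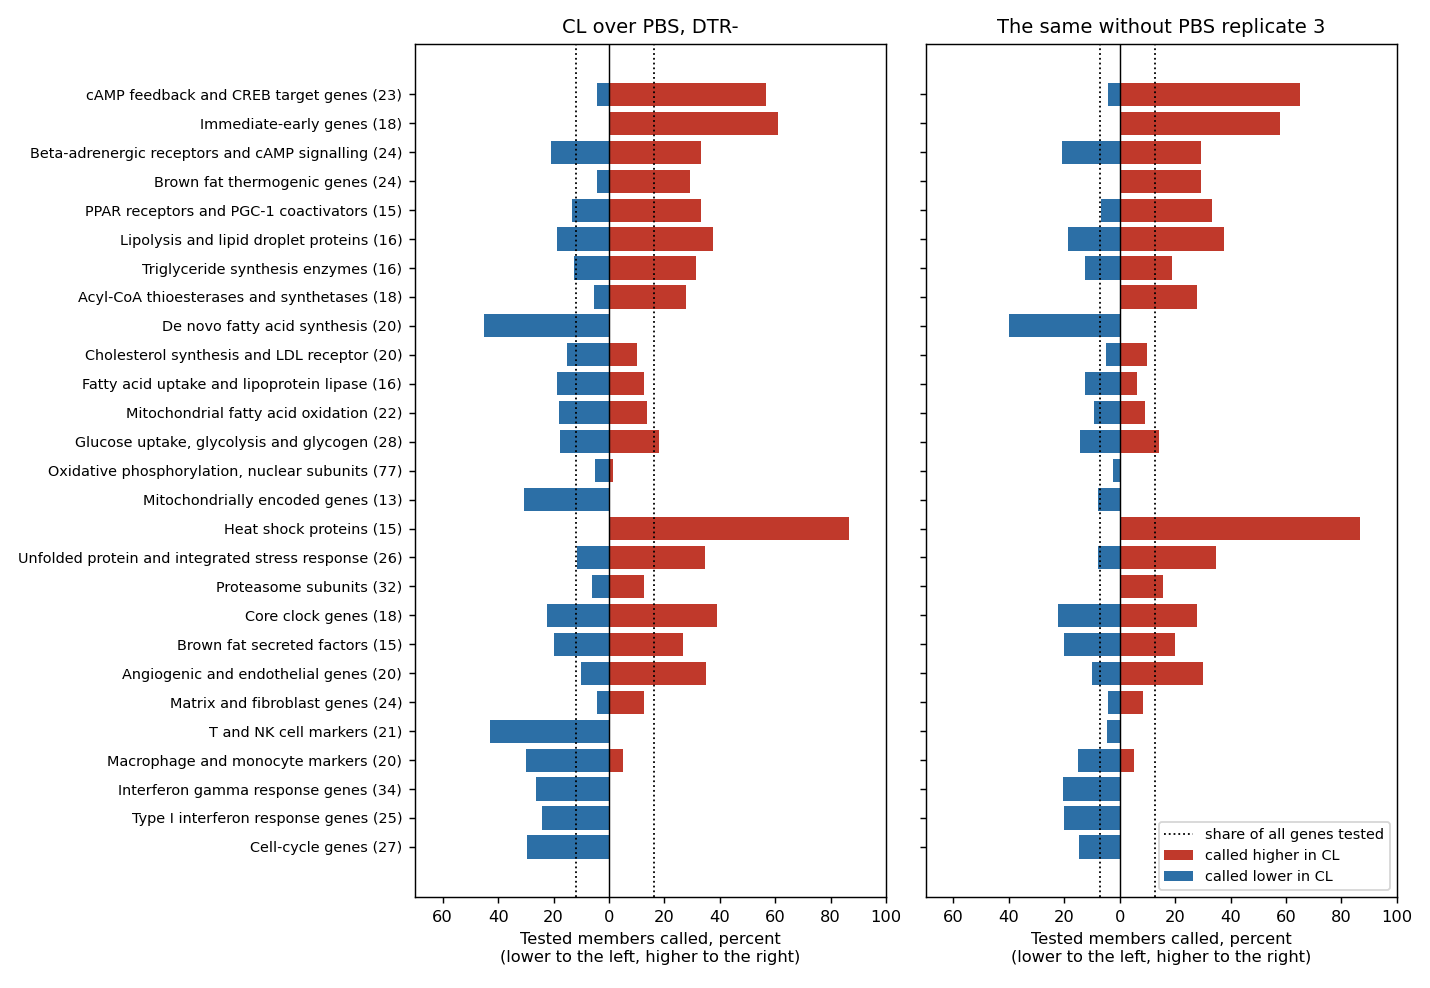
Share of tested members called higher (red, to the right) and lower (blue, to the left) with CL in 27 gene lists (number tested with all libraries in brackets), with all libraries (left) and without PBS replicate 3 (right). Dotted lines are the shares of all genes tested, 16.3% higher and 11.8% lower on the left and 12.8% and 6.95% on the right; T and NK markers, with 9 lower on the left and 1 on the right, are among those that differ between the panels.

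Lipid droplet genes moved both ways: of 16 tested lipolysis and droplet genes 6 rose and 3 fell (median 0.23), the same counts as without PBS replicate 3. Plin2, a coat protein of growing droplets, had 6621, 4616 and 6476 CPM with CL and 894, 1024 and 1310 CPM with PBS. It rose by 2.44 ± 0.24 (edgeR adjusted p = 1.1e-05). Plin1, the perilipin that gates lipolysis, had 1119, 1325 and 1175 CPM with CL and 362, 280 and 265 CPM with PBS, a rise of 1.99 ± 0.24 (edgeR adjusted p = 5.41e-05). Plin4 rose by 1.45 ± 0.24 (edgeR adjusted p = 0.00066), while Plin3 fell by 1.55 ± 0.25 (edgeR adjusted p = 0.000507), so members of the perilipin family went in opposite directions. Hilpda, a small inhibitor of the triglyceride lipase ATGL, had 77.9, 29.5 and 124 CPM with CL and 10.8, 9.30 and 10.5 CPM with PBS, and Abhd5, the activator of ATGL, had 457, 383 and 329 CPM with CL and 179, 277 and 228 CPM with PBS. Both rose, by 2.89 ± 0.49 and 0.77 ± 0.20 (edgeR adjusted p = 0.00204 and 0.0107). Fitm2, which helps droplets bud, rose by 0.94 ± 0.19 (edgeR adjusted p = 0.00239), and Bscl2, the seipin of droplet assembly, fell by 0.85 ± 0.15 (edgeR adjusted p = 0.00106). Lipe, hormone-sensitive lipase, had 1143, 957 and 1286 CPM with CL and 1129, 901 and 652 CPM with PBS and was not called (edgeR adjusted p = 0.425).

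Esterification and acyl-CoA handling moved by isoform. In triglyceride synthesis 5 of 16 genes rose and 2 fell (median 0.19, and 3 and 2 without PBS replicate 3). The share that fell was near that of all genes tested. Next to Gpat3, Dgat1, which esterifies recycled fatty acids, had 667, 1502 and 575 CPM with CL and 310, 317 and 348 CPM with PBS. Dgat2, which favours newly made fatty acids, had 1578, 1751 and 2580 CPM with CL and 4301, 4667 and 3898 CPM with PBS. Thus one of the 2 final enzymes rose, by 1.5 ± 0.31 (edgeR adjusted p = 0.00345), and the other fell, by 1.14 ± 0.18 (edgeR adjusted p = 0.000358). Of 18 acyl-CoA thioesterases and synthetases 5 rose and 1 fell (median 0.27; 5 and 0 without PBS replicate 3). Besides Acot5 these include its neighbours on chromosome 12 in the Acot cluster: Acot4 rose by 2.51 ± 0.21 (edgeR adjusted p = 2.64e-06) and Acot2, the mitochondrial enzyme, by 1.56 ± 0.21 (edgeR adjusted p = 0.00013). Acot1 had 27.3, 16.6 and 29.2 CPM with CL and 20.6, 20.4 and 17.1 CPM with PBS and was not called (edgeR adjusted p = 0.468), though in DTR+ mice it was (2.31 ± 0.43, edgeR adjusted p = 0.00102). Of the 31-base words of Acot2, 37.3% occur in other genes, chiefly Acot1, so these 2 are uncertain. Acsl1 and Acsl3, which activate fatty acids, rose by 1.13 ± 0.15 and 2.25 ± 0.40 (edgeR adjusted p = 9.53e-05 and 0.000985).

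In fatty acid synthesis 0 of 20 tested genes rose, 9 fell and 11 were not called (median -0.52), with 0 higher and 8 lower without PBS replicate 3. Srebf1, the transcription factor of the pathway, had 77.5, 49.0 and 70.5 CPM with CL and 270, 297 and 220 CPM with PBS. Acaca, acetyl-CoA carboxylase, had 134, 197 and 147 CPM with CL and 497, 816 and 537 CPM with PBS. They fell by 2.01 ± 0.21 and 1.96 ± 0.23 (edgeR adjusted p = 1.41e-05 and 3.8e-05). Thrsp, a regulator of lipogenesis, had 1286, 1475 and 1926 CPM with CL and 4658, 6474 and 6748 CPM with PBS, a fall of 1.95 ± 0.28 (edgeR adjusted p = 0.000318). Elovl6, an elongase of saturated fatty acids, fell by 1.56 ± 0.18 (edgeR adjusted p = 4.28e-05). Fasn, fatty acid synthase, fell by 0.99 ± 0.30 (edgeR adjusted p = 0.0307), a call lost without CL replicate 1, CL replicate 3 or PBS replicate 2. The count depended on the controls: against the DTR- D3 PBS libraries 18 of the list fell and 0 rose, and in DTR+ mice 17 fell and 0 rose. The summed level of the list was 24861, 30932 and 26568 CPM in DTR- CL libraries, 33168, 47415 and 35829 CPM in DTR- PBS libraries and 108630, 92015 and 83058 CPM in DTR- D3 PBS libraries. The D3 controls thus held more lipogenic RNA than the PBS controls of the same genotype, and the reason was not tested.

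Cholesterol synthesis behaved likewise with respect to the controls. Against the PBS libraries 2 of 20 genes were higher and 3 lower (median -0.53, and 2 and 1 without replicate 3). These shares were near those of all genes tested. Against the DTR- D3 PBS libraries 2 were higher and 17 lower. Hmgcs1, the synthase at the start of the pathway, rose by 1.32 ± 0.16 (edgeR adjusted p = 5.55e-05) from the PBS libraries and by 0.82 (edgeR adjusted p = 0.000985) from the D3 PBS libraries.

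Genes of fuel use were called in both directions against the PBS libraries. Of 22 genes of fatty acid oxidation 3 rose and 4 fell (median -0.19; 2 and 2 without PBS replicate 3), near the shares of all genes. Ehhadh, whose product is peroxisomal, rose by 1.07 ± 0.23 (edgeR adjusted p = 0.00437), and the mitochondrial genes Cpt2 and Decr1 fell by 1.08 ± 0.18 and 1.04 ± 0.21 (edgeR adjusted p = 0.000718 and 0.00214). Of 16 genes of fatty acid uptake, 2 rose and 3 fell (median -0.08; 1 and 2 without PBS replicate 3). Lpl, lipoprotein lipase, had 8943, 6971 and 8996 CPM with CL and 4763, 5185 and 3602 CPM with PBS, and Vldlr, a lipoprotein receptor, had 52.4, 57.4 and 70.1 CPM with CL and 219, 184 and 221 CPM with PBS. Lpl rose by 0.87 ± 0.18 and Vldlr fell by 1.80 ± 0.26 (edgeR adjusted p = 0.00285 and 0.000217). In glucose metabolism 5 of 28 genes rose and 5 fell (median -0.26, and 4 and 4 without PBS replicate 3). The share that rose was near that of all genes tested. Against the DTR- D3 PBS libraries 3 of the 28 rose and 18 fell (median -0.77), and in DTR+ mice 5 rose and 16 fell. Slc2a4, the insulin-regulated glucose transporter GLUT4, had 153, 128 and 211 CPM with CL and 339, 456 and 346 CPM with PBS, a fall of 1.23 ± 0.19 (edgeR adjusted p = 0.000397). Pfkp, the platelet-type phosphofructokinase, rose by 1.40 ± 0.20 (edgeR adjusted p = 0.000211), and Ugp2, which makes the sugar donor for glycogen, by 1.59 ± 0.20 (edgeR adjusted p = 6.26e-05). The glycogen-targeting phosphatase subunits Ppp1r3b and Ppp1r3c fell by 2.00 ± 0.28 and 1.31 ± 0.28 (edgeR adjusted p = 0.00016 and 0.00378). Fuel-gene changes outside the lists, chosen after their values were seen, include Pfkfb1, an enzyme that sets the phosphofructokinase activator, with 9.33, 5.94 and 7.25 CPM with CL and 77.5, 56.2 and 106 CPM with PBS, and Irs3, an insulin receptor substrate of rodent fat, with 5.03, 2.87 and 5.15 CPM with CL and 44.8, 41.4 and 58.5 CPM with PBS. Irs2 was thus higher and Irs3 lower in every CL library (Irs3 -3.49 ± 0.33, edgeR adjusted p = 6.62e-06).

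Heat shock proteins had the highest share of members called higher of the 35 lists: 13 of 15 rose and 0 fell (median 1.59), with 13 and 0 without PBS replicate 3, and 13 and 0 in DTR+ mice. Dnajb1, the inducible partner of HSP70, had 885, 960 and 634 CPM with CL and 36.1, 36.3 and 79.8 CPM with PBS. Hsph1, which recharges HSP70, had 645, 698 and 534 CPM with CL and 26.2, 32.3 and 73.7 CPM with PBS. Bag3, a chaperone adaptor of selective autophagy, had 265, 218 and 336 CPM with CL and 30.7, 34.8 and 29.7 CPM with PBS. The groups were apart for each, with log2 fold changes of 4.01 ± 0.44, 3.81 ± 0.40 and 3.09 ± 0.20 (edgeR adjusted p = 0.000139, 7.64e-05 and 3.05e-07). Hspa8, the constitutive HSP70, had 3137, 2724 and 3096 CPM with CL and 413, 572 and 978 CPM with PBS, and Hsp90aa1, the inducible HSP90, had 380, 396 and 292 CPM with CL and 92.4, 100.3 and 115 CPM with PBS. They rose by 2.18 ± 0.28 and 1.79 ± 0.24 (edgeR adjusted p = 0.000111 and 0.000104). The inducible HSP70 genes Hspa1a and Hspa1b share 65.4% and 68.0% of their 31-base words with other genes, chiefly each other, so their counts cannot be assigned with certainty. The same limit holds for Hspa8 and Hsp90aa1, which share 59.4% and 62.9%, chiefly with Gm15459 and Gm12346. Hspa1a had 36.3, 49.8 and 33.9 CPM with CL and 0.897, 0.443 and 2.81 CPM with PBS. Over the list the summed level was 9324, 9847 and 9286 CPM with CL and 2523, 2789 and 3781 CPM with PBS. Cold brown fat had 3778, 4242 and 3553 CPM, far below the CL libraries. A heat shock element, spelled GAA, TTC and GAA with any 2 bases between them, was found on either strand in 4 of 12 heat shock genes with a promoter window (33.3%), against 0.59% of genes tested, among them Hsph1 in the sequence shown above. The list was drawn from known heat shock genes, and this share describes the list, not the response.

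Of 26 genes of the unfolded protein and integrated stress response, 9 rose and 3 fell (median 0.21, and 9 and 2 without PBS replicate 3). The share that fell was near the 11.8% of all genes tested. Atf4, the transcription factor of the integrated stress response, had 646, 443 and 605 CPM with CL and 64.8, 79.3 and 89.8 CPM with PBS. It rose by 2.84 ± 0.21 (edgeR adjusted p = 6.46e-07). Its known targets Sesn2 and Ddit4, which restrain the kinase mTORC1, rose by 3.67 ± 0.35 and 4.47 ± 0.55 (edgeR adjusted p = 9.49e-06 and 6.99e-05), and Atf5 rose by 1.59 ± 0.24 (edgeR adjusted p = 0.000268). Of the arm in the endoplasmic reticulum, the chaperone Hspa5 had 1054, 779 and 1002 CPM with CL and 416, 426 and 651 CPM with PBS, and Dnajb9 had 284, 352 and 375 CPM with CL and 63.9, 84.1 and 114 CPM with PBS. These rose by 0.91 ± 0.21 and 1.93 ± 0.21 (edgeR adjusted p = 0.00593 and 2.56e-05), and Xbp1, a transcription factor of that arm, fell by 1.12 ± 0.18 (edgeR adjusted p = 0.00045). Outside the lists, and chosen after their values were seen, the amino acid transporter subunit Slc3a2 had 1714, 1249 and 1644 CPM with CL and 86.5, 101 and 124 CPM with PBS, and Cars2, the mitochondrial cysteinyl-tRNA synthetase, had 867, 523 and 702 CPM with CL and 47.0, 47.6 and 41.7 CPM with PBS. They are among the genes with the smallest p, at 3.87 ± 0.19 and 3.93 ± 0.20 (edgeR adjusted p = 2.93e-08 and 3.36e-08). Proteasome subunits, on whose activity brown fat relies in the cold, gave 4 higher and 2 lower of 32 (median 0.09, and 5 and 0 without PBS replicate 3). With all libraries both shares were below those of all genes tested. Against the DTR- D3 PBS libraries 7 of 32 rose and 2 fell, beside 20.4% and 16.3% of all genes. In DTR+ mice 12 of 32 rose and 0 fell (median 0.41), beside 20.2% and 17.5% of all genes.

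**Figure D4:**
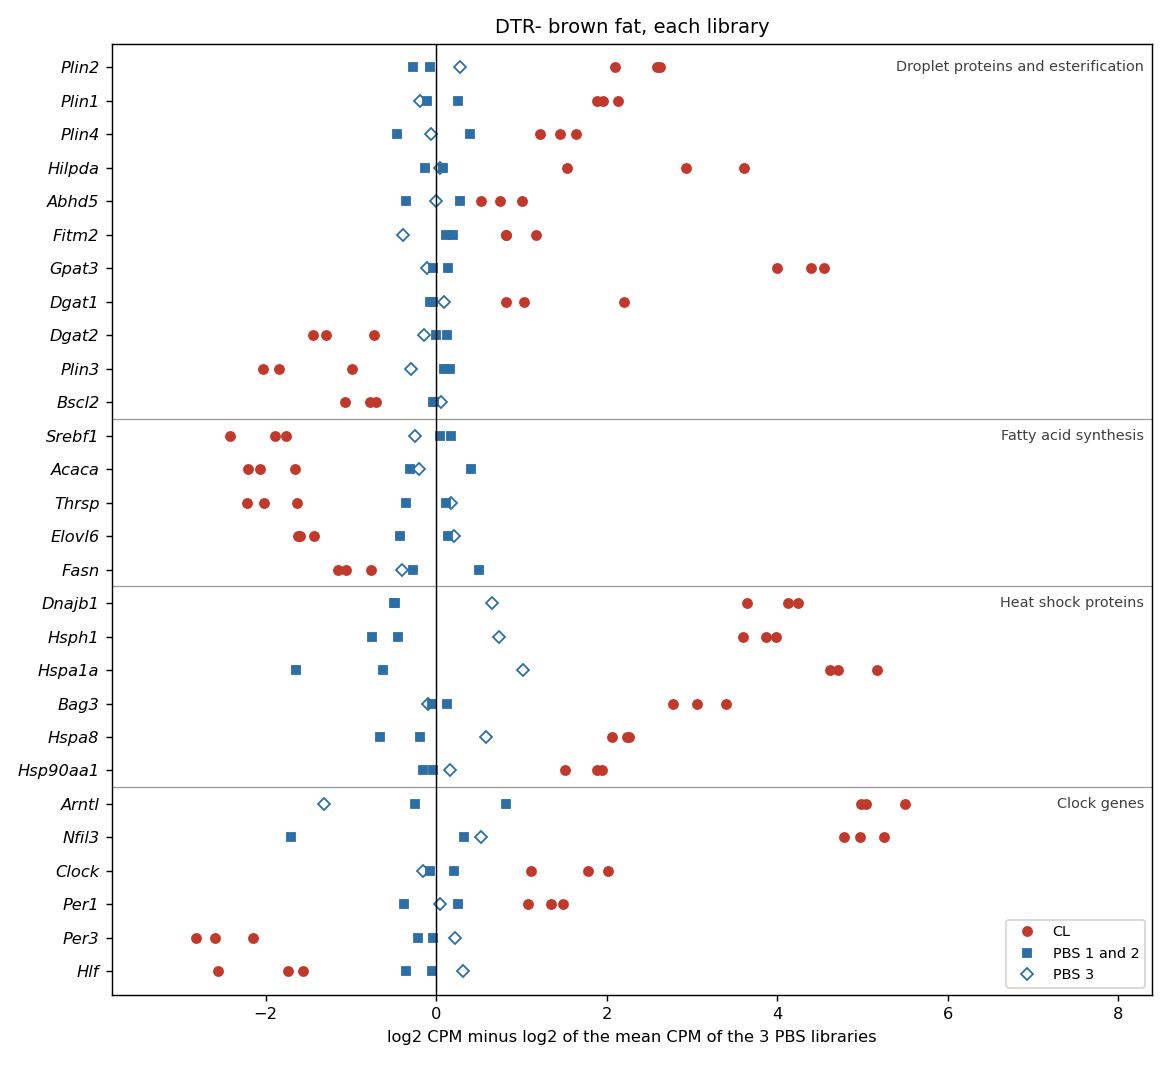
Level of 28 named genes in each DTR- library, as log2 CPM minus log2 of the mean CPM of the 3 PBS libraries (x), grouped by role (y). Red circles are CL libraries and blue marks PBS libraries, with replicate 3 as an open diamond; fatty acid synthesis genes lie left of the PBS marks in every CL library and heat shock genes lie right of them.

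Clock genes, which run with the time of day at which tissue is taken, gave 7 higher and 4 lower of 18 (median 0.04; 5 and 4 without PBS replicate 3), and in DTR+ mice 5 rose and 9 fell. Arntl, the activator BMAL1, had 96.9, 67.6 and 70.5 CPM with CL and 1.79, 3.76 and 0.856 CPM with PBS. Nfil3, a repressor of the output arm, had 183, 162 and 222 CPM with CL and 1.79, 7.31 and 8.44 CPM with PBS. Per3, a repressor of the core loop, had 20.5, 27.9 and 17.5 CPM with CL and 120, 106 and 144 CPM with PBS. None of these 3 genes overlapped between the groups, with log2 fold changes of 5.28 ± 0.39 for Arntl, 4.97 ± 0.53 for Nfil3 and -2.50 ± 0.33 for Per3 (edgeR adjusted p = 6.46e-07, 0.000125 and 9.78e-05). Clock, the partner of BMAL1, rose by 1.68 ± 0.25 (edgeR adjusted p = 0.000276) and Hlf, an output gene, fell by 1.92 ± 0.34 (edgeR adjusted p = 0.00104), though Hlf was not called against the DTR- D3 PBS libraries (edgeR adjusted p = 0.252). The Arntl response was 2.02 against the DTR- D3 PBS libraries (edgeR adjusted p = 8.11e-05) and 1.72 ± 0.18 in DTR+ mice. Per1, a clock gene that is also a CREB target, rose by 1.30 ± 0.34 against the PBS libraries (edgeR adjusted p = 0.0117), was not called against the D3 PBS libraries (0.07, edgeR adjusted p = 0.904) and fell by 1.16 ± 0.32 in DTR+ mice (edgeR adjusted p = 0.0143). The hour at which each group was sampled is not stated, and treatment and hour cannot be told apart.

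Among 15 secreted factors tested 4 rose and 3 fell (median 0.21; 3 and 3 without PBS replicate 3). Fgf21, a hormone of stressed liver and brown fat, had 9.33, 9.84 and 9.36 CPM with CL and 0, 0.221 and 0 CPM with PBS. That is 154 counts against 1, a ratio of 173 with a counting interval of 30.7 to 6900, and in DTR+ mice it was not called (1.14 ± 0.55, edgeR adjusted p = 0.118). Gdf15, a stress hormone, rose by 4.22 ± 0.57 (edgeR adjusted p = 0.000119), with 26.2, 20.7 and 12.5 CPM with CL and 1.97, 0.221 and 0.856 CPM with PBS. Vegfa, the vessel growth factor, had 16.9, 116 and 15.3 CPM with CL and 8.07, 6.64 and 10.03 CPM with PBS, so that CL replicate 2 sets its value: the call (edgeR adjusted p = 0.031) was lost without that library, where the log2 fold change was 0.92, against 2.59 ± 0.75 with it, and it was also lost without any single PBS library. Cebpb, a transcription factor of adipogenesis, was uneven in the same way, with 24.4, 374 and 93.1 CPM with CL and 6.82, 3.54 and 9.79 CPM with PBS (edgeR adjusted p = 0.0186), and its call too was lost without any single PBS library. Edn1, the vasoconstrictor endothelin, had 2.51, 3.69 and 3.74 CPM with CL and 0, 0.221 and 0.612 CPM with PBS, and its call was lost against the D3 PBS libraries (edgeR adjusted p = 0.408). Of 19 genes of adipocyte identity 6 rose and 5 fell (median 0.20; 5 and 3 without PBS replicate 3). Cebpa, a driver of mature fat cells, had 33.7, 73.0 and 67.9 CPM with CL and 187, 183 and 196 CPM with PBS, a fall of 1.69 ± 0.29 (edgeR adjusted p = 0.000814), and Rbp4, an adipokine that carries retinol, rose by 1.35 ± 0.22 (edgeR adjusted p = 0.000578).

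Of 20 vascular genes tested 7 rose and 2 fell (median 0.65; 6 and 2 without PBS replicate 3). With other controls the counts ran differently: 5 of 19 rose and 6 fell against the DTR- D3 PBS libraries, and 4 rose and 7 fell in DTR+ mice (median -0.44). Cdh5, the cadherin of endothelial junctions, had 76.5, 98.6 and 57.3 CPM with CL and 31.03, 12.4 and 13.2 CPM with PBS. It rose by 2.05 ± 0.39 (edgeR adjusted p = 0.0019), and the VEGF receptors Kdr and Flt1 rose by 1.17 ± 0.21 and 1.44 ± 0.28 (edgeR adjusted p = 0.00111 and 0.00179). None of these 3 was called in DTR+ mice (edgeR adjusted p = 0.111, 0.901 and 0.121). Of 24 matrix genes 3 rose and 1 fell (median 0.37; 2 and 1 without PBS replicate 3), and 10 rose and 0 fell against the DTR- D3 PBS libraries. Col4a1 and Col4a2, the basement membrane collagens, which share a promoter region, had 1022, 726 and 868 CPM and 619, 636 and 518 CPM with CL. With PBS they had 214, 192 and 82.8 CPM and 206, 158 and 91.0 CPM. The rises were 2.42 ± 0.38 and 1.96 ± 0.33 (edgeR adjusted p = 0.00104 and 0.00106), and the lowest PBS library for both was replicate 3.

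Most calls of lower T and NK cell genes were lost without PBS replicate 3, the library singled out for its high level of these genes. T and NK markers gave 9 lower and 0 higher of 21 tested (median -3.22), 1 lower and 0 higher of 22 without PBS replicate 3, and 0 called of 3 tested against the DTR- D3 PBS libraries. Cd3g, a chain of the T cell receptor complex, had 0, 0 and 0.351 CPM with CL and 0.359, 0.664 and 20.4 CPM with PBS, so that replicate 3 held nearly all of its 172 counts with PBS. Nkg7, a granule protein of cytotoxic cells, had 1.79, 0 and 1.05 CPM with CL and 5.20, 2.21 and 47.8 CPM with PBS, and Trbc2, a T cell receptor constant region, had 0, 0 and 0.351 CPM with CL and 0.897, 1.11 and 14.4 CPM with PBS. None of these 3 kept its call without PBS replicate 3 (edgeR adjusted p = 0.426, 0.0527 and 0.129). Gzmb, granzyme B, had 0 counts with CL and 125 with PBS, at least 37.0-fold lower with CL when that group is set at 3 counts; PBS libraries 1 and 2 had 0.538 and 1.55 CPM and replicate 3 had 14.1 CPM. Of 34 interferon gamma genes 9 fell and 0 rose (median -2.23; 7 and 0 without PBS replicate 3, median -0.63), and against the DTR- D3 PBS libraries 4 of 30 fell and 3 rose. Irgm2, an immunity-related GTPase, had 7.90, 2.66 and 10.5 CPM with CL and 27.6, 26.1 and 290 CPM with PBS. It was lower in every CL library, by 4.04 ± 1.14 (edgeR adjusted p = 0.0391) with all libraries and 1.92 without PBS replicate 3 (edgeR adjusted p = 0.00159). Type I interferon genes gave 6 lower and 0 higher of 25 (5 and 0 without PBS replicate 3; 0 and 0 against the D3 PBS libraries). Cell-cycle genes gave 8 lower and 0 higher of 27 (4 and 0 without PBS replicate 3), among them Cdk1, the mitotic kinase, with 1 count with CL and 83 with PBS. Macrophage markers, Lpl left out because fat cells express it, gave 6 lower and 0 higher of 19, and their sums were 315, 316 and 376 CPM with CL and 804, 353 and 915 CPM with PBS. The DTR- D3 PBS libraries held 197, 241 and 361 CPM, the highest of them within the CL range and the others below it. With Lpl kept in the list, 6 of 20 fell and 1 rose against the PBS libraries, 3 fell and 1 rose without PBS replicate 3, and 0 of 16 fell and 4 rose against the DTR- D3 PBS libraries, Lpl being 1 of the genes that rose in each. Lyz2, lysozyme of myeloid cells, had 75.0, 84.5 and 70.3 CPM with CL and 278, 140 and 391 CPM with PBS and fell by 1.82 ± 0.28 (edgeR adjusted p = 0.000482), and by 1.45 without PBS replicate 3 (edgeR adjusted p = 0.000636). Against the DTR- D3 PBS libraries it was not called (-0.30, edgeR adjusted p = 0.406), nor was Adgre1, the macrophage marker F4/80 (edgeR adjusted p = 0.635). In DTR+ mice the same lists went the other way, with 17 of the T and NK markers and 31 of the interferon gamma genes higher and 0 lower. Both groups of that comparison were DTR+ mice given DT, and the agonist and the experiment cannot be told apart there.

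Some of the largest changes fell outside every list. Kcne4, a potassium channel subunit, had 27.6, 21.7 and 38.6 CPM with CL and 0, 0.221 and 0 CPM with PBS, 513 counts against 1, a ratio of 578 with a counting interval of 103 to 22900. Rasef, a RAB-type GTPase, had 129 counts with CL and 0 with PBS, at least 48.4-fold higher with PBS set at 3 counts. Both genes were almost silent in PBS brown fat at this depth, and both were also called higher in DTR+ mice (edgeR adjusted p = 2.63e-05 and 0.00072). Plk3, a stress-responsive kinase, had 92.6, 92.0 and 125 CPM with CL and 0.538, 1.33 and 6.97 CPM with PBS, a log2 fold change of 4.97 ± 1.01 (edgeR adjusted p = 0.00966). Others of the kind were Slco1a1, an organic anion transporter, at 5.24 ± 0.77, and Tatdn2 at 5.20 ± 0.67 (edgeR adjusted p = 0.000253 and 9.24e-05). Cenpu, a centromere protein, had 96 counts with CL and 2 with PBS, a ratio of 54.1 with a counting interval of 14.6 to 453. Among genes that fell by much, Mc5r, the melanocortin receptor of exocrine glands and fat, had 0, 0.205 and 0.351 CPM with CL and 1.97, 6.86 and 11.9 CPM with PBS. It fell by 4.83 ± 0.98 (edgeR adjusted p = 0.00253), Gdf5, a growth factor of the BMP family, by 4.66 ± 1.20 (edgeR adjusted p = 0.0109), Nat8f1 by 4.23 ± 0.88 (edgeR adjusted p = 0.003) and Fbxl2, a ubiquitin ligase subunit, by 3.99 ± 0.90 (edgeR adjusted p = 0.00515). Gbp11 and Itgal, an interferon-induced GTPase and a leukocyte integrin, fell as well, with 45.9 and 17.1 CPM in PBS replicate 3 against at most 7.31 and 4.48 CPM in the other PBS libraries. In DTR+ mice Plk3, Tatdn2 and Cenpu were also called higher, and Mc5r and Gdf5 lower. Nat8f1 and Fbxl2 were not called there (edgeR adjusted p = 0.224 and 0.755), and Slco1a1 was not tested. Gbp11 and Itgal were called higher there (edgeR adjusted p = 0.0456 and 0.0282).

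**Figure D5:**
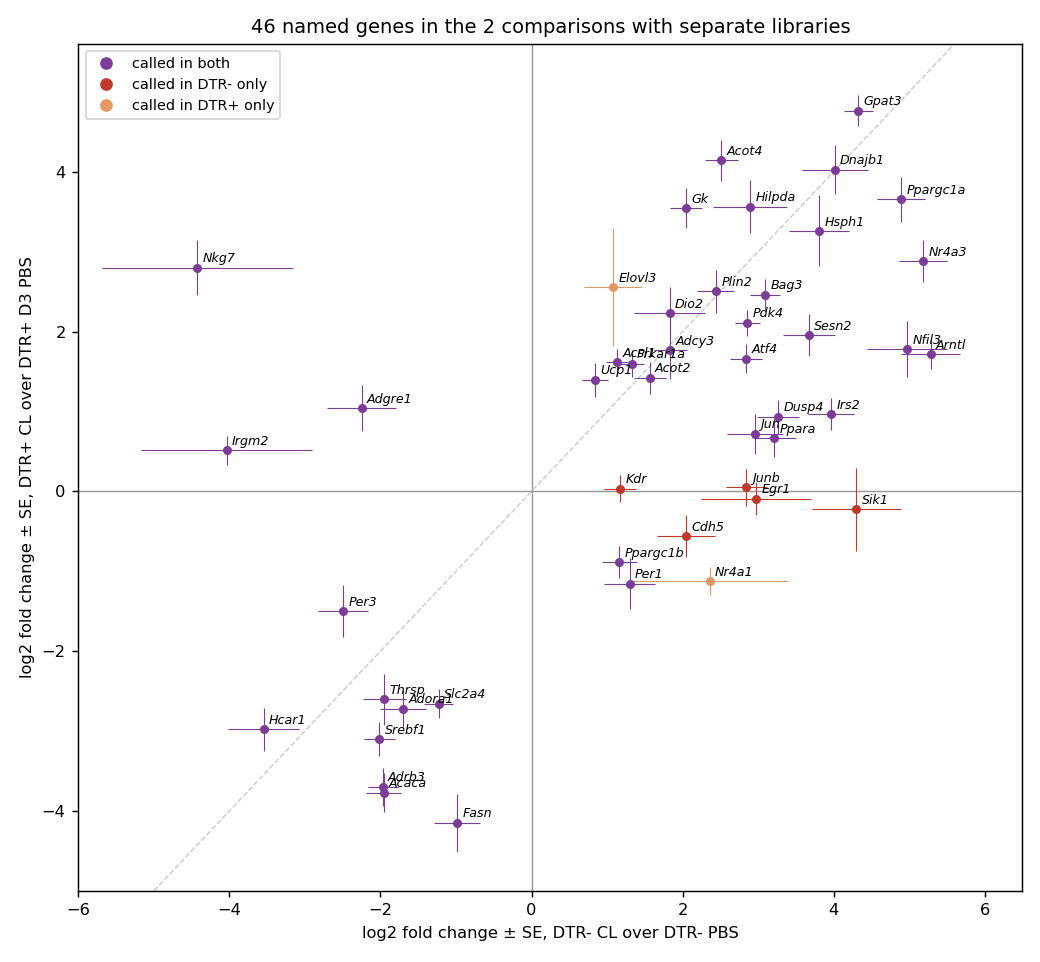
Log2 fold change ± SE of 46 genes, chosen after their values were seen to show each role, in DTR- mice (CL over PBS, x) and DTR+ mice (CL over D3 PBS, y); the dashed line marks equal values and colours show in which comparison edgeR called the gene. The droplet, heat shock and receptor genes shown have one sign in both, while Junb, Sik1 and Kdr lie near 0 in DTR+ mice and Nkg7, Adgre1 and Irgm2 have opposite signs.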

How the data were processed

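The deposited values are whole-number counts of reads per gene, made by the authors with STAR 2.7.3a and featureCounts against mm10, as the submitters' processing notes name them. The annotation used is not given in the sources used here, nor is the strand option or the treatment of multiply mapped reads. Libraries were made by Smart-seq2 with oligo(dT) priming from 2 ng of RNA, per the labels' protocols. The table holds 55011 genes. Replicates differed by more than sampling noise and each was counted once.

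Counts were tested in R 4.3.3 with edgeR 4.0.16 (filterByExpr, TMM factors, robust quasi-likelihood F test, Benjamini-Hochberg adjusted p under 0.05). The DTR- fit holds the CL and PBS groups and the DTR+ CL group, which share 1 estimate of spread, and the DTR+ comparison was fitted on its own 6 libraries. The SE is the log2 fold change divided by the square root of F. CPM were scaled with TMM factors over the 38 whole-tissue brown fat libraries. Intervals of ratios and limits from 0 counts cover counting error only, and a group at 0 was set at 3 counts. DESeq2 1.42.0, other scalings, no filter, other controls and each library left out were tried as alternatives. On simulated data with 200 changed genes, edgeR recovered 27% of log2 changes of 1 and 69% of log2 changes of 2 in the DTR- design, with 9.43% of calls false, and 46% and 90% in the DTR+ design, with 6.21% false. Each design had 1 draw. In the DTR- design 200 of 11686 genes were changed, whereas 28.1% of genes were called in the data. These rates may therefore not hold for the data.

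The members and the 35 gene lists were chosen with earlier results of these data known. Named genes were the 4 marker genes with Ucp1, Adrb3 and Foxp3, up to 15 genes each way by size of change (mean of at least 5 CPM, ranges that do not overlap), up to 6 called genes of each list, and further members of lists of metabolism, cAMP signalling and thermogenesis. Egr1, Vegfa, Cebpb, Hspa5, Dnajb1 and the genes said to be chosen after their values were seen fall outside this rule. Positions and shared sequence come from GENCODE vM21 (mm10), and promoters from RefSeq. Acaca (56.8%), Trbc2 (48.5%), Gbp11 (34.3%), Lyz2 (32.8%) and Nat8f1 (30.5%) also share 31-base words with other genes, so their counts carry the same uncertainty. A few genes that the rule would name are not reported here.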

Additional observations from a re-analysis of the deposited data

Results flagged for a closer look

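For 13 named genes the libraries of the groups did not overlap in either genotype and CL lay on opposite sides of the controls in DTR- and DTR+ mice; the difference itself was not tested, and the DTR+ controls come from another experiment. Among all 11681 genes tested in both, 208 were higher with CL in DTR- mice and lower in DTR+ mice, and 200 the other way round.

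The immune genes were lower with CL in DTR- mice and higher in DTR+ mice. Fitted log2 fold changes in DTR- and then in DTR+ mice were -1.82 and 1.49 for Lyz2, -2.25 and 1.04 for Adgre1, -4.43 and 2.80 for Nkg7, and -4.93 and 2.95 for Trbc2. They were -5.30 and 2.63 for Cd3g, -8.07 and 2.76 for Gzmb, -5.26 and 1.11 for Gbp11, and -4.04 and 0.51 for Irgm2. Cdk1 had -5.72 and 1.70. Fitted values of genes with at most 3 counts in a group depend on the prior count. In PBS replicate 3 of the DTR- mice the T and NK markers summed to 326 CPM, against 39.6 and 23.9 CPM in the other PBS libraries. That library was singled out for its high T cell and interferon genes, so leaving it out is no separate test of its part. Without it, Cd3g, Trbc2 and Nkg7 were not called, while Lyz2, Adgre1, Cdk1, Irgm2, Gbp11 and Gzmb were.

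The other 4 genes were higher with CL in DTR- mice and lower in DTR+ mice. Values were 2.05 and -0.56 for Cdh5, 1.16 and -0.89 for Ppargc1b, 1.30 and -1.16 for Per1, and 2.36 and -1.12 for Nr4a1. Of these, Cdh5 was not called in DTR+ mice (edgeR adjusted p = 0.111) and Nr4a1 was not called in DTR- mice (edgeR adjusted p = 0.144).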

How the results depend on the processing

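In DTR- mice the number of genes called was 3817 with DESeq2, 3407 with RLE size factors, 3572 with no filter, 3320 with the CL and PBS groups alone, 4254 with the D3 PBS controls and 3379 with no scaling factors, a setting chosen after seeing the data. With one library left out it ranged from 2460 to 2931, and the number of genes called lower ranged from 864 (without PBS replicate 3) to 1125, with 913 without CL replicate 1, against 1423 with all libraries. Genes called in DTR+ mice numbered 3242 to 4785 with one library left out and 4521 to 4645 with DESeq2, RLE size factors or no filter. Lipe turned to -0.755 (log2) with the D3 PBS controls; the cause was not tested. Of 123 named genes called, 16 lost the call in at least 1 alternative, 9 of them in one other than the D3 PBS controls: Fasn, Dio2, Egr1, Vegfa, Cebpb, Cd3g, Trbc2, Nkg7 and Irgm2. None of the 123 turned direction in an alternative that tested it. A gene left untested by an alternative was not counted as losing its call there. Against the D3 PBS controls this holds for Cdk1, Gzmb, Gbp11, Itgal, Fosl1, Trbc2 and Cd3g, so these counts may understate the dependence.

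Same-numbered replicates did not deviate together (correlations of 0.047, -0.036 and 0.013 in DTR- mice). The labels state no pairing, and 3 libraries per group are too few to show a weak one. With the replicate number as a block 3123 genes were called in DTR- mice (1906 higher, 1217 lower) and 4565 in DTR+ mice (2386 higher, 2179 lower). The libraries range from 3007241 to 9620920 counts and groups have 3 libraries, so single calls near the threshold are the least firm. The simulated data gave more false calls than the 5% aimed at, though with a far smaller share of changed genes than was called here.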

Other observations

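Of 18 chemokines and inflammatory cytokines tested, 2 were called higher and 4 lower with CL (median log2 fold change -0.93; 1 and 2 without PBS replicate 3). Against the DTR- D3 PBS libraries 3 of 13 were higher and 0 lower, and in DTR+ mice 12 of 18 were higher and 2 lower. Of 6 Schwann cell and nerve markers 2 were higher and 1 lower. Skeletal muscle markers gave 0 called of 13, red blood cell genes 0 of 6, neutrophil markers 0 of 4 and regulatory T cell markers 0 of 2, and the 1 B cell marker tested was lower. Of 15 skeletal muscle markers 1 was lower against the DTR- D3 PBS libraries (median -1.95). In DTR+ mice 5 of the 15 were lower (median -2.43), and 0 were higher in either comparison.

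Cold brown fat, which belongs to no contrast above, had 3899, 4155 and 3960 CPM of Elovl3, against 1068, 628 and 1037 CPM in CL libraries and 182, 469 and 624 CPM in PBS libraries. The fatty acid synthesis list summed to 39305, 18181 and 25594 CPM in the cold.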
